A study of Arabidopsis thaliana with 12 samples.

Results

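The 8 genes described here carry the output and the mobile signal of systemic acquired resistance in *Arabidopsis thaliana*, and were taken by locus from a fixed list, 8 of the 33323 loci in the deposited table. They are PR1 (AT2G14610), PR2 (AT3G57260) and PR5 (AT1G75040), which encode secreted pathogenesis-related proteins; ALD1 (AT2G13810), SARD4 (AT5G52810) and FMO1 (AT1G19250), the enzymes that make pipecolate and N-hydroxypipecolate; UGT76B1 (AT3G11340), a glucosyltransferase; and NIMIN1 (AT1G02450), a small protein that binds the receptor NPR1. All 8 passed the filter on low counts and were tested. FMO1 passed through jazD, where it was highest (29, 118 and 35 counts, and at most 11 in any other library). That FMO1 is among the tested genes is therefore not a result. ALD1, UGT76B1 and NIMIN1 passed through libraries with intact CDK8, and had 17, 9 and 15 counts over all cdk8-1 libraries. RNA was sequenced from whole rosettes, roots left out, of 25-day-old soil-grown plants of 4 genotypes with 3 libraries each, every library a pool of about 10 plants. Col-0 is the wild type, and cdk8-1 carries a mutant allele of CDK8, the kinase of the Mediator complex that links transcription factors to RNA polymerase. The line jazD is mutant in 10 genes for JAZ repressors of jasmonate response (JAZ1 to JAZ7, JAZ9, JAZ10 and JAZ13, named here from general knowledge of the line, since the labels spell out neither genes nor alleles), and jazD cdk8-1 carries those mutations together with cdk8-1. All genotypes shared trays and a photoperiod of 16 h light with 8 h dark at 20 °C, and the labels name no pathogen or hormone treatment.

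Systemic acquired resistance is a state in which leaves far from an infection become harder to infect. Salicylate, sensed by NPR1 and its relatives, switches on PR genes through TGA transcription factors, while N-hydroxypipecolate travels between leaves and primes them. Lysine is converted by the aminotransferase ALD1 and the reductase SARD4 to pipecolate, which FMO1 hydroxylates to N-hydroxypipecolate, and UGT76B1 attaches glucose to that product and to salicylate. Jasmonate signalling, which JAZ proteins hold back, is known for acting against salicylate responses in leaves.

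The sequence just before the gene start is shown for 4 members that held one of the searched motifs, since PR5 and FMO1 were highest in jazD while PR2 and SARD4 were not. Each is the 250 bases before the annotated start in RefSeq's TAIR10.1, written 5′ to 3′ along the gene's own strand, with motif letters in capitals. PR2 is chr3:21189968-21190217 on the reverse strand, PR5 chr1:28177420-28177669 on the forward strand, FMO1 chr1:6653196-6653445 on the reverse strand and SARD4 chr5:21399081-21399330 on the forward strand.
PR5: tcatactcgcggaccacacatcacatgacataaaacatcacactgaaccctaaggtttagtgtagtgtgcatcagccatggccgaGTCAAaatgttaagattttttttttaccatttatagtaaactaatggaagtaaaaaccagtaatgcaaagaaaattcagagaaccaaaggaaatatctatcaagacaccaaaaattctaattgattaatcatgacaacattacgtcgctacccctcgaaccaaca
FMO1: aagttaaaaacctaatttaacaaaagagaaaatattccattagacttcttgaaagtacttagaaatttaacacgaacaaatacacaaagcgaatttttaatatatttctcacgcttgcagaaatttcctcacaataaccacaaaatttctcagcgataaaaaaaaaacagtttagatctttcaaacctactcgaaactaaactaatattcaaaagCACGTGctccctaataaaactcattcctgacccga
PR2: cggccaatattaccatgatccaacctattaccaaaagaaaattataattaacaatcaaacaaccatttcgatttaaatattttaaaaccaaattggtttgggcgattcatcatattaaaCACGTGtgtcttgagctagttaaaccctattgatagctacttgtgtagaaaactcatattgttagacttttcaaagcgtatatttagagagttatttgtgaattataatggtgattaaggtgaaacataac
SARD4: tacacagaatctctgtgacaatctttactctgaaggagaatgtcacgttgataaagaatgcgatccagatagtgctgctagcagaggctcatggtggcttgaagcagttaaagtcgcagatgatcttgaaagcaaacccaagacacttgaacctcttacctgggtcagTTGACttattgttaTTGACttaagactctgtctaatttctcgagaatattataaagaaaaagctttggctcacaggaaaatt

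The motifs searched were the following, on both strands: TTGAC, the core of the W-box that WRKY factors bind, TGACG, the core of the element that TGA factors bind, and CACGTG, the G-box of bHLH and bZIP factors. In the windows of the 7 members other than PR1, TTGAC stood in 2 of 7, 165 bases before the start of PR5 on the opposite strand (read as GTCAA) and 82 and 68 bases before that of SARD4. CACGTG stood in 2 of 7, 131 bases before the start of PR2 and 35 before that of FMO1, and TGACG in 0 of 7. No 2 of these matches overlapped. Over 27443 windows of the same length, 44.9% held TTGAC, 18.6% TGACG and 6.49% CACGTG. The windows of ALD1, UGT76B1 and NIMIN1 held none of the 3. The members with a W-box core went both up and down in jazD, and a match says only that the letters are there.

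Total counts per library ran from 17583467 to 21030374. CDK8 stood at 335 to 406 counts in Col-0 and 339 to 409 in jazD, against 46 to 55 in cdk8-1 and 49 to 71 in jazD cdk8-1, so its counts went with the genotype labels. Of 8 tested JAZ genes among those mutated, 5 fell in jazD, from JAZ6 (11.1-fold) to JAZ3 (1.15-fold), JAZ5 was not called (-0.29, edgeR adjusted p = 0.332), and 2 were higher, JAZ10 (4.51-fold) and JAZ9 (1.13-fold); on the log2(TPM + 1) scale 1 was higher. With the alleles not given, a transcript level does not test such a label. Summed markers of rosette leaf (RBCS1A, RCA, LHCB2.1, GAPB and PSBO1) reached 33300 to 45900 CPM (counts scaled to a common library size), those of root stayed below 3 CPM and those of flower at or below 2.06 CPM. The summed level of 6 senescence markers was 62.3 to 75.8 CPM in Col-0, 60.5 to 62.4 in cdk8-1, 96.6 to 107 in jazD and 76.7 to 85.2 in jazD cdk8-1. SAG12, the defining one, was at 0 counts in every Col-0, cdk8-1 and jazD library. The summed leaf markers were lowest in jazD (33300 to 37800 CPM, against 41000 to 44300 in Col-0) and the senescence sum was highest there. Most of that sum was PPH, at 72.8 CPM in jazD and 43.6 in Col-0. PPH and NAC092 were called higher in jazD and SAG13 was not called, while NYE1 (14.5 CPM) and SAG29 (0.0922 CPM) had their lowest means there. The part of leaf and senescence markers in the jazD values below was not tested. On the authors' TPM scale the median gene moved by 0.13 between jazD and jazD cdk8-1 (log2), and 75.7% of called genes were then higher in jazD cdk8-1, against 47.1% with edgeR's scaling. In bulk tissue, fewer cells with a transcript and less transcript per cell cannot be told apart.

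Per transcript length, in the authors' TPM, the PR genes were the most abundant members in Col-0, jazD and jazD cdk8-1, while in cdk8-1 SARD4 (13.6 TPM) averaged more than PR1 and stood behind PR5 and PR2. In Col-0 PR2 averaged 48.5, PR5 46.1 and PR1 39.8 TPM, SARD4 15.2, and NIMIN1, ALD1, UGT76B1 and FMO1 lay between 2.46 and 0.257 TPM. In jazD PR5 averaged 169 and PR1 123 TPM, while FMO1 stood at 2.00 TPM. The genes of the hydroxypipecolate branch other than SARD4 were read from few counts: FMO1 had 23 counts over the 3 Col-0 libraries and 3 over the cdk8-1 libraries.

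**Figure D1:**
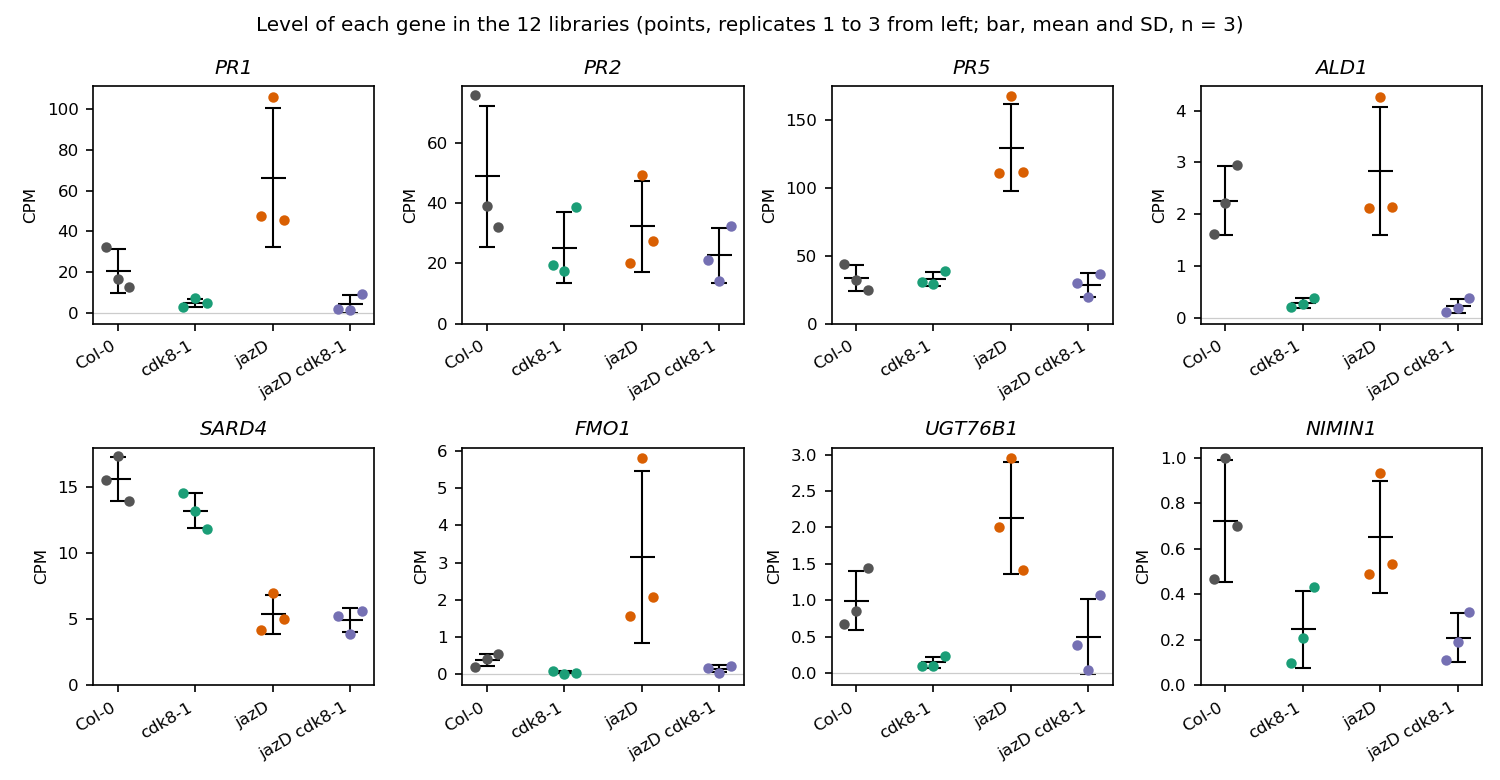
CPM (vertical axis, linear, its own range in each panel) of the 8 genes in the 4 genotypes; points are libraries, replicates 1 to 3 from left to right, and the bar is the mean with its SD (n = 3). The means of PR1, PR5, FMO1, ALD1 and UGT76B1 were highest in jazD, where ALD1 and UGT76B1 libraries overlapped with Col-0. SARD4 was low in both genotypes with jazD, and PR1, ALD1 and NIMIN1 were low in both genotypes with cdk8-1.

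Among the pathogenesis-related genes, PR5 rose in jazD and fell again in jazD cdk8-1, PR1 did so by edgeR but not by every tool, and PR2 followed another order. PR1, the usual marker of salicylate response, stood at 32.5, 16.6 and 12.4 CPM in the Col-0 libraries, at 3.04, 7.03 and 4.66 in those of cdk8-1, at 47.5, 106 and 45.5 in those of jazD and at 2.06, 1.43 and 9.17 in those of jazD cdk8-1. No jazD library overlapped with Col-0 and no cdk8-1 library did, and jazD cdk8-1 overlapped with cdk8-1 alone. PR1 was higher in jazD than in Col-0 by 1.71 ± 0.34 (log2 fold change ± SE, edgeR adjusted p = 0.00038), a call lost with DESeq2 (1.69, adjusted p = 0.0521) and with limma on log2(TPM + 1) without a filter (1.59, adjusted p = 0.0655). It was lower in cdk8-1, at -2.06 ± 0.47 (edgeR adjusted p = 0.00249), which limma on log2(TPM + 1) without a filter did not call (adjusted p = 0.0513). From jazD to jazD cdk8-1 it fell, at -3.94 ± 0.43 (15.3-fold, edgeR adjusted p = 2.91e-07). Without jazD cdk8-1 replicate 3, in which PR1 was 5.25 times the mean of the other libraries of its genotype, that change was -5.27. The change from Col-0 to jazD cdk8-1 was -2.23 ± 0.48 (edgeR adjusted p = 0.00113), and -3.56 without the same library.

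PR5, a thaumatin-like antifungal protein, stood at 44.2, 32.4 and 25 CPM in the Col-0 libraries, at 31, 29.1 and 39.1 in those of cdk8-1, at 111, 168 and 112 in those of jazD and at 30, 19.5 and 36.6 in those of jazD cdk8-1. Its 3 jazD libraries lay above all 9 others, and the other 3 genotypes overlapped. The rise in jazD was 1.95 ± 0.19 (3.86-fold, edgeR adjusted p = 2.54e-08) and the fall from jazD to jazD cdk8-1 was -2.18 ± 0.19 (edgeR adjusted p = 9.14e-09). Against Col-0, PR5 had a value of -0.03 ± 0.20 in cdk8-1 (edgeR adjusted p = 0.934; 0.08 on the log2(TPM + 1) scale) and of -0.24 ± 0.20 in jazD cdk8-1 (edgeR adjusted p = 0.414). PR5 was the only member whose cdk8-1 effect differed by test between the jazD and the intact JAZ background (interaction -2.15 ± 0.28, edgeR adjusted p = 1.2e-05), a test that called 16.5% of all genes, 8.16% as higher and 8.39% as lower. For PR1 the same test gave -1.87 ± 0.70 (edgeR adjusted p = 0.0761), and it passed without Col-0 replicate 1 (-2.38, adjusted p = 0.02), without jazD replicate 3 (-2.09, adjusted p = 0.0492) or without jazD cdk8-1 replicate 3 (-3.21, adjusted p = 0.00698), as it did without a filter on low counts (0.000989).

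PR2, a beta-1,3-glucanase that cuts fungal cell walls, stood at 75.6, 38.9 and 31.9 CPM in the Col-0 libraries, at 19.5, 17.4 and 38.7 in those of cdk8-1, at 20.1, 49.2 and 27.5 in those of jazD and at 21.2, 14.2 and 32.4 in those of jazD cdk8-1. Every pair of genotypes overlapped. The value in jazD was -0.58 ± 0.32 (edgeR adjusted p = 0.153), and -1.03 with an adjusted p of 0.0173 without jazD replicate 2, or 0.0162 without a filter on low counts. PR2 passed the test as lower in cdk8-1 (-0.94 ± 0.33, edgeR adjusted p = 0.0377) and in jazD cdk8-1 (-1.10 ± 0.33, adjusted p = 0.0136), both against Col-0. The first call was lost without Col-0 replicate 1 (adjusted p = 0.313), cdk8-1 replicate 1 (0.132) or cdk8-1 replicate 2 (0.151), and the second without Col-0 replicate 1 (0.145) or jazD cdk8-1 replicate 2 (0.0889). DESeq2 made neither call (adjusted p = 0.194 and 0.0918), nor did limma on log2(TPM + 1) (0.114 and 0.0597). The level in jazD cdk8-1 against jazD was -0.52 ± 0.34 (edgeR adjusted p = 0.259).

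BG3, another beta-1,3-glucanase, averaged 2.55 ± 0.449 CPM in Col-0, 0.713 ± 0.275 in cdk8-1, 11.7 ± 6.77 in jazD and 2.97 ± 1.68 in jazD cdk8-1 (SD, n = 3). It passed the test as higher in jazD (2.22, edgeR adjusted p = 2.48e-05) and lower in cdk8-1 (-1.83, adjusted p = 0.0184) and, 3.99-fold, from jazD to jazD cdk8-1 (adjusted p = 8.05e-05). PRB1, the basic PR1-like gene, fell in jazD (-1.36, edgeR adjusted p = 0.0102) on 50 counts in all Col-0 libraries and 18 in all jazD libraries. BG1 had at most 13 counts in any genotype and was not tested.

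The 3 enzymes that act in turn to make N-hydroxypipecolate did not move together. ALD1, which starts the route from lysine, stood at 1.61, 2.21 and 2.95 CPM in the Col-0 libraries, at 0.2, 0.258 and 0.384 in those of cdk8-1, at 2.12, 4.27 and 2.13 in those of jazD and at 0.111, 0.191 and 0.371 in those of jazD cdk8-1. All 6 libraries with cdk8-1 lay below the 6 others. ALD1 fell 7.85-fold in cdk8-1 against Col-0 (-2.97 ± 0.41, edgeR adjusted p = 1.22e-05) and 12.2-fold from jazD to jazD cdk8-1 (-3.60 ± 0.41, adjusted p = 5.49e-07), and was lower in jazD cdk8-1 than in Col-0 (-3.26 ± 0.43, adjusted p = 4.29e-06). Between jazD and Col-0 the value was 0.35 ± 0.28 (edgeR adjusted p = 0.33), with overlapping libraries. The interaction was -0.63 ± 0.70 (edgeR adjusted p = 0.613). AGD2, the aminotransferase of lysine synthesis that is related to ALD1, ranged only from 127 to 146 CPM between genotype means, with -0.14 in jazD (edgeR adjusted p = 0.0265) and 0.06 in cdk8-1 (adjusted p = 0.379).

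SARD4, the reductase of the second step, stood at 15.5, 17.3 and 13.9 CPM in the Col-0 libraries, at 14.5, 13.2 and 11.8 in those of cdk8-1, at 4.14, 6.98 and 4.97 in those of jazD and at 5.23, 3.87 and 5.6 in those of jazD cdk8-1. The 6 libraries with jazD lay below the 6 without it. SARD4 fell 2.88-fold in jazD (-1.52 ± 0.15, edgeR adjusted p = 2.57e-08), 3.18-fold in jazD cdk8-1 against Col-0 (-1.67 ± 0.15, adjusted p = 1.31e-08) and 2.69-fold in jazD cdk8-1 against cdk8-1 (-1.43 ± 0.15, adjusted p = 2.66e-07). Loss of CDK8 had values of -0.24 ± 0.13 against Col-0 (edgeR adjusted p = 0.174) and -0.14 ± 0.17 in jazD (adjusted p = 0.557; 0.03 on the log2(TPM + 1) scale). In jazD cdk8-1 against cdk8-1 it was the only 1 of the 8 members called, where 24.0% of all genes were called, 12.7% as higher and 11.2% as lower. LKR, the enzyme that opens lysine breakdown by another route, rose in jazD (0.71, edgeR adjusted p = 5.29e-06).

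The neighbours of SARD4 on chromosome 5 went both ways in jazD. Of the 10 tested loci on each side of it, 20 in all, 3 were called higher and 2 lower in jazD, with a median of 0.02 (log2). Over all genes, 21.8% were called higher and 20.9% lower, so these neighbours were not called more often than other genes. The loci next to SARD4 had -0.23 and -0.07, while WRKY27, the second after it, had -1.27, and MAKR5, the sixth, -1.31. Among the 100 tested loci on each side, 4 were at least 8-fold lower in jazD (2.0%, against 0.21% of all tested loci). SARD4 itself, 2.88-fold lower, did not reach that threshold. The nearest of these were AT5G52940, 14 tested loci after SARD4, and TRM24, 60 before it. TRM24 averaged 5.74 ± 0.0202 CPM in Col-0, 11.6 ± 1.75 in cdk8-1, 0.318 ± 0.197 in jazD and 0.475 ± 0.222 in jazD cdk8-1 (SD, n = 3). The window was chosen after values were seen, and any part of the gene's place on the chromosome in its change was not tested.

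**Figure D2:**
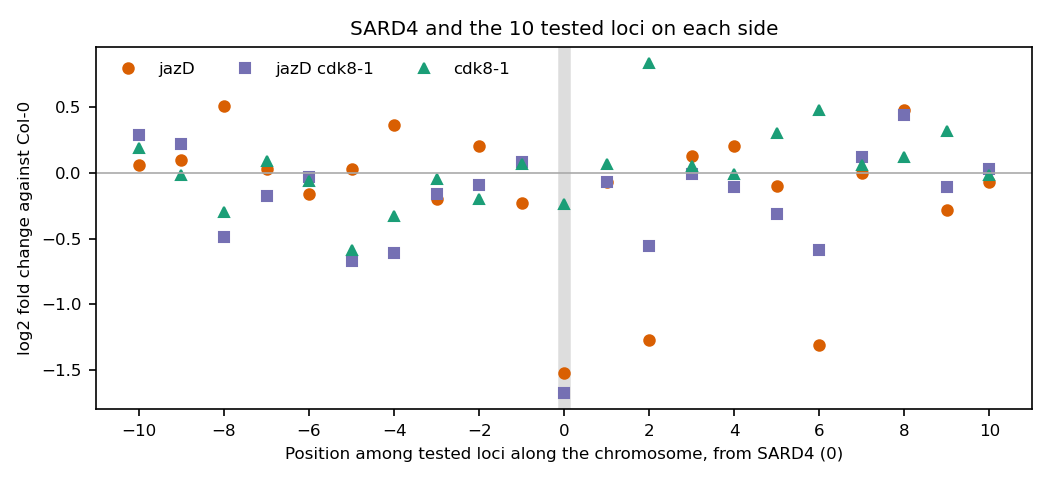
Log2 fold change against Col-0 (vertical axis) of SARD4 (position 0, grey band) and of the 10 tested loci on each side in the order of the chromosome (horizontal axis), in jazD, jazD cdk8-1 and cdk8-1. SARD4 was low in jazD and jazD cdk8-1. WRKY27 and MAKR5 were the 2 neighbours of 20 called lower in jazD, and 4 neighbours were called lower in jazD cdk8-1, by at most -0.67 (AT5G52750). Over all genes 20.9% were called lower in jazD and 16.1% in jazD cdk8-1, both against Col-0.

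FMO1, which makes N-hydroxypipecolate, had the largest change of the 8 genes in jazD. It stood at 0.208, 0.401 and 0.55 CPM in the Col-0 libraries, at 0.0998, 0 and 0.048 in those of cdk8-1, at 1.58, 5.8 and 2.07 in those of jazD and at 0.167, 0.0478 and 0.232 in those of jazD cdk8-1. Every jazD library lay above the 9 others, by most in replicate 2, which held 118 of the 182 jazD counts. FMO1 rose 8.14-fold in jazD (3.02 ± 0.48, edgeR adjusted p = 2.53e-05) and fell 20.7-fold from jazD to jazD cdk8-1 (-4.37 ± 0.57, adjusted p = 3.09e-06). Without jazD replicate 2 these were 2.21 and -3.57, and both calls held. FMO1 passed the filter on low counts through jazD, which favours both directions, so neither call is free of that selection. In cdk8-1 against Col-0 FMO1 had 3 counts against 23, a 7.41-fold ratio with a 95% interval from counting error of 2.24 to 38.6, and the value missed the threshold (edgeR adjusted p = 0.0546). DESeq2 called it (adjusted p = 0.0157), as edgeR did without jazD replicate 2 (0.00716), jazD replicate 1 (0.0296), jazD replicate 3 (0.0487) or Col-0 replicate 1 (0.045), without a filter on low counts (0.00987), and limma on log2(TPM + 0.1) (0.0306). The interaction of FMO1 was -1.56 ± 1.8 and was not called (edgeR adjusted p = 0.626), nor was it by DESeq2 (adjusted p = 0.511). Limma on log2(TPM + 1) called it (-1.06, adjusted p = 0.0363), on a scale whose added 1 exceeds every FMO1 level outside jazD.

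UGT76B1, which caps salicylate and N-hydroxypipecolate with glucose, stood at 0.675, 0.853 and 1.45 CPM in the Col-0 libraries, at 0.0998, 0.103 and 0.24 in those of cdk8-1, at 2.01, 2.95 and 1.42 in those of jazD and at 0.389, 0.0478 and 1.07 in those of jazD cdk8-1. The cdk8-1 libraries lay below all Col-0 libraries and the jazD cdk8-1 libraries below all jazD ones, and jazD overlapped with Col-0. UGT76B1 fell 6.43-fold in cdk8-1 (-2.69 ± 0.68, edgeR adjusted p = 0.00521; 0.0562 with limma on log2(TPM + 1) without a filter) and 4.18-fold from jazD to jazD cdk8-1 (-2.06 ± 0.47, adjusted p = 0.00144), and by -3.34 in the second comparison without jazD cdk8-1 replicate 3. The rise in jazD (1.11 ± 0.41, edgeR adjusted p = 0.0357) was not called by DESeq2 (adjusted p = 0.254) or by limma on log2(TPM + 0.1) (0.179) or on log2(TPM + 1) without a filter (0.0912), nor without Col-0 replicate 1 (0.13), Col-0 replicate 2 (0.107), jazD replicate 1 (0.057) or jazD replicate 2 (0.186). Against Col-0, jazD cdk8-1 gave -0.95 ± 0.52 (edgeR adjusted p = 0.177), and -2.23 with an adjusted p of 0.00956 without jazD cdk8-1 replicate 3. Against cdk8-1 it gave 1.73 ± 0.77 (edgeR adjusted p = 0.113), 0.0411 without a filter on low counts, and 2.28 with 0.0159 without jazD cdk8-1 replicate 2, where UGT76B1 had 1 count.

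NIMIN1, which with NPR1 damps PR1 induction, stood at 0.467, 1 and 0.7 CPM in the Col-0 libraries, at 0.0998, 0.207 and 0.432 in those of cdk8-1, at 0.49, 0.933 and 0.533 in those of jazD and at 0.111, 0.191 and 0.324 in those of jazD cdk8-1. Libraries with and without cdk8-1 did not overlap within either background, and jazD overlapped with Col-0 (-0.13 ± 0.41, edgeR adjusted p = 0.828). It fell in cdk8-1 (-1.52 ± 0.49, edgeR adjusted p = 0.0252), from jazD to jazD cdk8-1 (-1.60 ± 0.52, adjusted p = 0.0191) and in jazD cdk8-1 against Col-0 (-1.73 ± 0.50, adjusted p = 0.0109). Col-0 libraries held 9 to 20 counts, and leaving out single libraries ended these calls. The first was lost without Col-0 replicate 2 (adjusted p = 0.134) or 3 (0.0509) or cdk8-1 replicate 1 (0.116) or 2 (0.0766), and was -2.20 without cdk8-1 replicate 3; DESeq2 gave 0.0543. The second was lost without jazD replicate 2 (0.123) or jazD cdk8-1 replicate 1 (0.071) or 2 (0.0633), and the third without Col-0 replicate 2 (0.0695). Among its relatives, NIMIN2 rose by 1.41 and NIMIN3 by 0.96 (edgeR adjusted p = 1.71e-05 and 1.96e-07), and both fell in cdk8-1 and from jazD to jazD cdk8-1.

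Counted over the 8 genes, jazD against Col-0 called 5, 4 as higher and 1 as lower, in a comparison that called 42.8% of all genes, 21.8% as higher and 20.9% as lower. The 4 were PR1, PR5, UGT76B1 and FMO1, and FMO1 passed the filter on low counts through jazD. The median log2 fold change of the 8 was 0.73, against 0.00 over all genes tested. In cdk8-1 against Col-0, 5 were lower and 0 higher, where 25.5% of all genes were called, 11.7% as higher and 13.8% as lower; the median was -1.79. In jazD cdk8-1 against jazD, 6 were lower and 0 higher, where 35.8% of all genes were called, 16.9% as higher and 19.0% as lower, with a median of -2.12. In jazD cdk8-1 against Col-0, 5 were lower and 0 higher, where 32.4% were called, 16.3% as higher and 16.1% as lower, with a median of -1.51. Libraries did not overlap at 4, 5, 6 and 4 members in these comparisons, in the same order, and at 51.5%, 37.6%, 47.9% and 44.8% of all genes. ALD1, UGT76B1 and NIMIN1 passed the filter on low counts through libraries with intact CDK8, and FMO1 through jazD. Their lower values with cdk8-1 went the way this filter favours. The other lower calls were PR1 and PR2 in cdk8-1 against Col-0, and PR1 and PR5 in jazD cdk8-1 against jazD. In jazD cdk8-1 against Col-0 they were PR1, PR2 and SARD4. The comparisons share genotypes, and with 8 members the 62.5% called in jazD is not read as standing apart from the 42.8% of all genes.

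**Figure D3:**
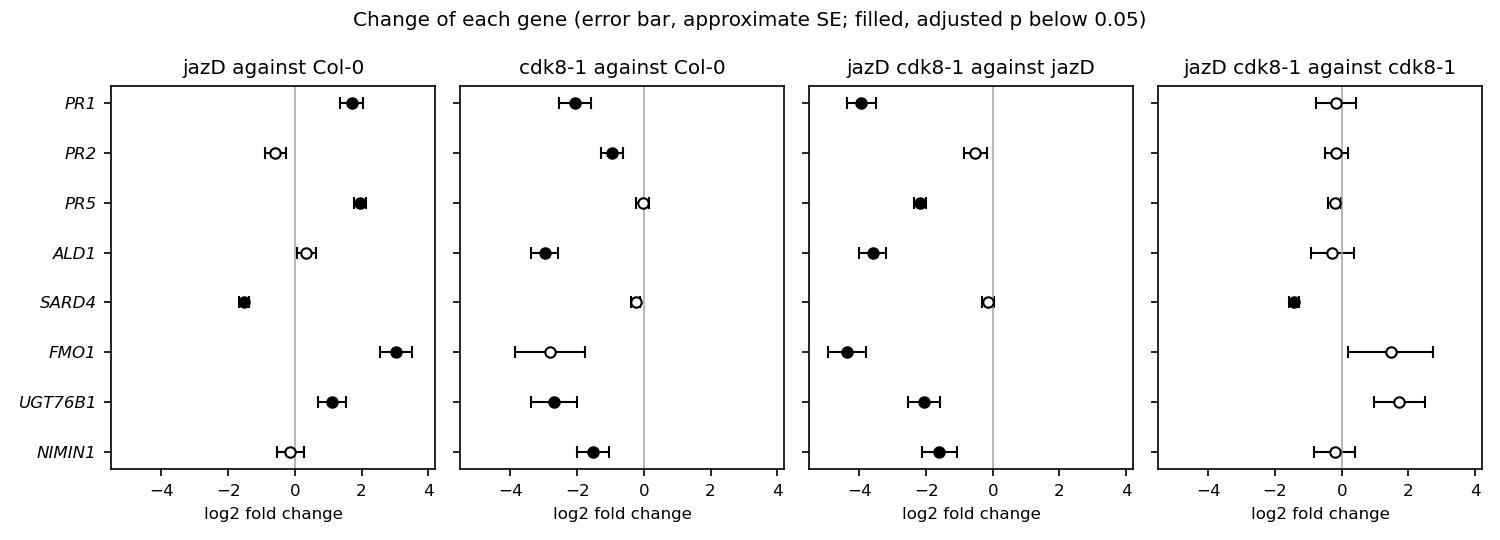
Log2 fold change (horizontal axis) of each gene in 4 comparisons, with its approximate SE; filled points passed an adjusted p of 0.05. Points of jazD cdk8-1 against jazD lay left of 0, with FMO1 farthest, and in jazD cdk8-1 against cdk8-1 only SARD4 passed.

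Within a genotype the 8 genes tended to be high in the same library. All 8 were highest in jazD replicate 2 among the jazD libraries and all 8 in jazD cdk8-1 replicate 3 among those of jazD cdk8-1, where 34.8% and 34.5% of all tested genes were highest. In cdk8-1, replicate 3 was highest for 5 of them, and in Col-0 the highest library was replicate 1 for PR1, PR2 and PR5 and replicate 3 for ALD1, FMO1 and UGT76B1. Deviations of log2 CPM from the genotype means correlated positively in 28 of 28 pairs of genes over the 12 libraries (Pearson r 0.22 to 0.94, median 0.49), highest for PR2 with PR5. These points share libraries and depth scaling. No label marks these libraries, and the part of a shared difference between pools in the results was not tested.

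**Figure D4:**
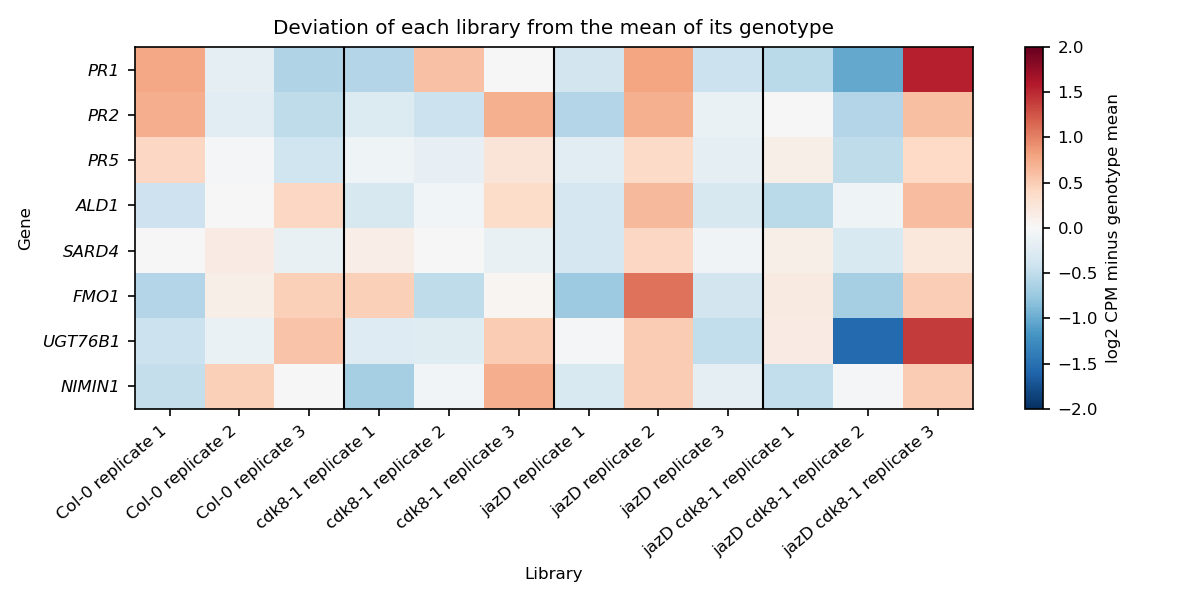
Colour gives log2 CPM of each gene (rows) in each library (columns) minus the mean of its genotype, from blue (lower) to red (higher), with lines between genotypes. All 8 rows are red in jazD replicate 2 and in jazD cdk8-1 replicate 3.

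Genes of salicylate signalling outside the 8 were taken from lists chosen with earlier results of these data known, and their shares called stand beside the backgrounds given above. Of 10 WRKY factors that act in salicylate response, 5 rose and 1 fell in jazD (median 0.69), 0 rose and 7 fell in cdk8-1 (median -0.96), and 0 rose and 8 fell from jazD to jazD cdk8-1 (median -1.27). On the log2(TPM + 1) scale and with DESeq2, 4 rose in jazD, 6 fell in cdk8-1 and 7 fell from jazD to jazD cdk8-1. WRKY33 averaged 23.0 ± 3.86 CPM in Col-0, 9.60 ± 0.828 in cdk8-1, 51.8 ± 9.65 in jazD and 16.8 ± 0.973 in jazD cdk8-1 (SD, n = 3). WRKY40 rose by 1.16 in jazD and changed by -2.72 from jazD to jazD cdk8-1 (edgeR adjusted p = 0.000706 and 2.96e-07). WRKY18 rose 2.29-fold and fell 2.31-fold in the same comparisons (edgeR adjusted p = 5.72e-08 and 7.09e-08).

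Of 5 genes of salicylate synthesis, 1 rose and 1 fell in jazD, 4 fell in cdk8-1 and 2 fell from jazD to jazD cdk8-1; on the log2(TPM + 1) scale, added after seeing the data, 2 and 1 fell. EDS5, which exports the precursor from the chloroplast, was the one that rose, by 1.26 (edgeR adjusted p = 6.41e-07), and changed by -1.50 from jazD to jazD cdk8-1 (adjusted p = 1.14e-07). ICS1, the main isochorismate synthase, averaged 22.7 ± 1.51 CPM in Col-0 and 25.6 ± 3.25 in jazD (SD, n = 3), with 0.18 in jazD (edgeR adjusted p = 0.154) and -0.14 in cdk8-1 (adjusted p = 0.35), and fell from jazD to jazD cdk8-1 (-0.41, adjusted p = 0.00277). Of 12 genes of salicylate perception, 5 rose and 1 fell in jazD, 4 rose and 2 fell in cdk8-1, and 1 rose and 3 fell from jazD to jazD cdk8-1, against 4 and 2 on the log2(TPM + 1) scale. The 4 that rose in cdk8-1 encode TGA factors, TGA7 by the most (0.73, edgeR adjusted p = 8.27e-08). Genes called both in jazD against Col-0 and from jazD to jazD cdk8-1 included the NPR1-binding NIMIN2 (1.41 and -2.38) and NIMIN3 (0.96 and -1.09). The receptor gene NPR3 (0.55 and -0.18) was another, as was TGA1 in the other direction (-0.52 and 0.48).

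Of 10 regulators that act upstream in immunity, 5 rose and 1 fell in jazD, 1 rose and 3 fell in cdk8-1, and 0 rose and 6 fell from jazD to jazD cdk8-1; on the log2(TPM + 1) scale 3 rose and 1 fell in jazD, 1 rose and 1 fell in cdk8-1, and 0 rose and 3 fell from jazD to jazD cdk8-1. SAG101, a partner of EDS1, rose by 0.47 in jazD and changed by -0.31 from jazD to jazD cdk8-1 (edgeR adjusted p = 6.72e-05 and 0.00414). SARD1, an activator of ICS1 and FMO1, had 0.29 in jazD (adjusted p = 0.327), and fell from jazD to jazD cdk8-1 (-1.28, adjusted p = 0.000398). Of 6 other outputs of salicylate response, 2 rose and 2 fell in jazD, 5 fell in cdk8-1 and 5 fell from jazD to jazD cdk8-1. On the log2(TPM + 1) scale 2 rose and 1 fell in jazD, and with DESeq2 1 rose and 1 fell. From jazD to jazD cdk8-1 both gave 4 lower. AIG2, induced in bacterial recognition, stood at 1.95 in jazD (edgeR adjusted p = 4.21e-14), -0.07 in cdk8-1 (adjusted p = 0.634) and -1.31 from jazD to jazD cdk8-1 (adjusted p = 2.8e-11). PCC1 averaged 239 ± 29.7 CPM in Col-0, 91.8 ± 31.5 in cdk8-1, 178 ± 36.4 in jazD and 98.5 ± 6.75 in jazD cdk8-1 (SD, n = 3).

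Of 9 genes that modify salicylate or its methyl ester, 5 rose and 0 fell in jazD, 2 rose and 4 fell in cdk8-1, and 2 rose and 5 fell from jazD to jazD cdk8-1 (2 and 3 on the log2(TPM + 1) scale). UGT71C3, which glucosylates methyl salicylate, averaged 1.15 ± 0.130 CPM in Col-0, 0.578 ± 0.143 in cdk8-1, 33.9 ± 2.19 in jazD and 1.55 ± 0.330 in jazD cdk8-1 (SD, n = 3). It rose by 4.88 in jazD and changed by -4.44 from jazD to jazD cdk8-1 (edgeR adjusted p = 5.48e-18 and 3.47e-17). BSMT1, which makes methyl salicylate, rose by 1.48 and changed by -1.76 in the same comparisons (edgeR adjusted p = 0.00456 and 0.00181).

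**Figure D5:**
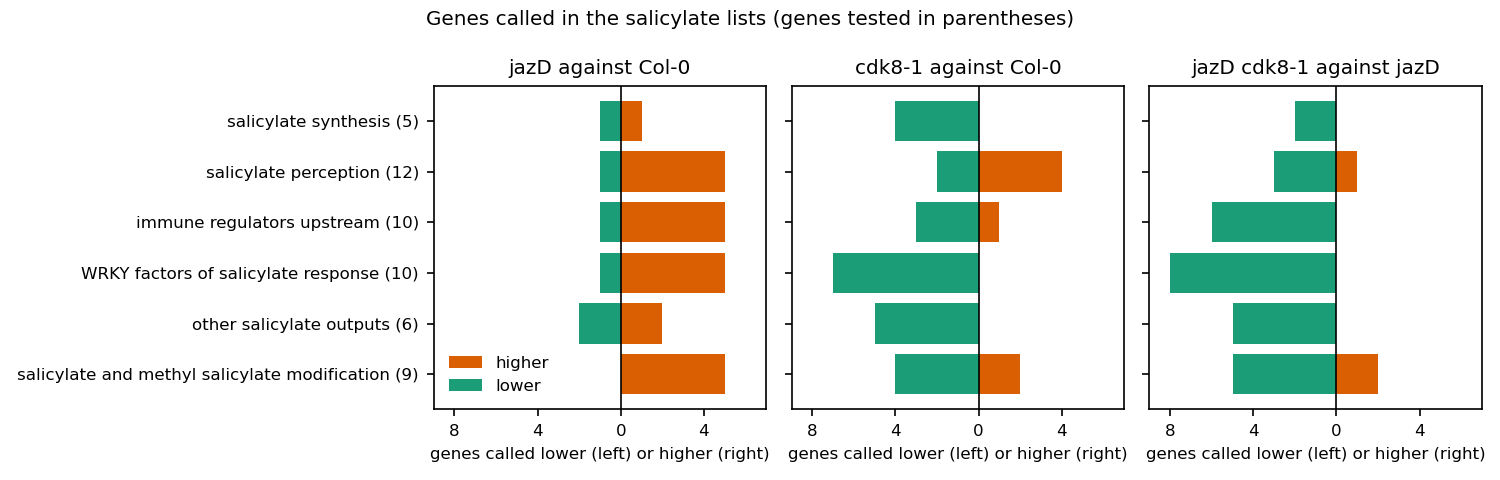
Number of genes called lower (left of 0) or higher (right of 0) in each list, in 3 comparisons; genes tested are given in parentheses. From jazD to jazD cdk8-1 all called WRKY genes (8), upstream regulators (6), other outputs (5) and synthesis genes (2) were lower. Perception genes (1 higher, 3 lower) and modification genes (2 higher, 5 lower) went both ways. Over all genes 19.0% were called lower and 16.9% higher. On the log2(TPM + 1) scale 7 WRKY genes and 3 upstream regulators were lower.

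Genes whose log2 CPM was most like that of each member over the 12 libraries were sought among 16281 genes. For PR1 the most alike was CYP71A13 (Pearson r = 0.972), a cytochrome P450 of camalexin synthesis with a close copy between which reads may be divided. For PR5 it was EXT3 (r = 0.968), an extensin of the cell wall, then BCB, a blue copper protein, and CPK5, a calcium-dependent kinase. For ALD1 it was PCR1 (r = 0.97), then TAT3, a tyrosine aminotransferase, and AT1G13470, which was also second for PR1. UGT76B1 was most like AT1G51890, a receptor-like kinase (r = 0.94), then PAD3, the last enzyme of camalexin synthesis. SARD4 was most like PHO1 (r = 0.978), a phosphate exporter, then SWEET2 and SVL2, and PR2 was most like RLP41 (r = 0.937), a receptor-like protein. FMO1 had AT5G57710 (r = 0.978) and NIMIN1 AT4G38552 (r = 0.919) as the most alike, genes whose own changes from Col-0 to jazD were 0.29 and -0.21. Libraries of 1 genotype share that genotype, so the 12 points are not independent.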

How the data were processed

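The authors deposited, from RSEM 1.2.25 with TAIR10 according to the submitters' processing notes, a table of expected counts and a table of TPM, both per gene and library. No aligner or strand protocol is named in the sources. RSEM divides reads among similar genes, so close copies are uncertain. Expected counts were rounded, and edgeR 4.0.16 (R 4.3.3) filtered them with filterByExpr, which left 19059 loci, scaled libraries by TMM and fitted the 12 libraries in 1 quasi-likelihood model of the 4 genotypes. Tests were 2-sided, and a call needs an adjusted p (Benjamini-Hochberg, all genes) below 0.05. The approximate SE divides the log2 fold change by the square root of F. Log2 CPM has a prior count of 2. Alternatives were DESeq2 1.42.0, limma 3.58.1 on log2(TPM + 1) and log2(TPM + 0.1), RLE scaling, no filter, only the compared genotypes, a replicate block and leaving out each library. On simulated data for the comparison of jazD with Col-0 (18569 genes), the test recovered 51 of 67 changes of 1.5-fold, 59 of 67 of 2-fold and 61 of 66 of 4-fold, with 11 unchanged genes called. The simulation held only those 2 genotypes and few changed genes, drawn at any level. Its rates do not describe members with few counts. The members, lists and tests were chosen with earlier results of these data known. Named are the members, CDK8, their relatives, up to 3 called genes per list with the smallest adjusted p in each of jazD against Col-0 and jazD cdk8-1 against jazD, and the 3 genes most alike to each member; the neighbours of SARD4, TRM24 and AT5G52940 were chosen after values were seen. TAIR10.1 gave promoter windows (that of PR1 is not reported here) and gene order, since the deposited tables hold no coordinates. Intervals cover counting error only.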

Additional observations from a re-analysis of the deposited data

Results flagged for a closer look

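The effect of cdk8-1 on PR5 differed between backgrounds. PR5 fell from jazD to jazD cdk8-1 (-2.18) and had a value of -0.03 in cdk8-1 against Col-0, and the test of that difference gave -2.15 ± 0.28 (log2, edgeR adjusted p = 1.2e-05). All 3 jazD libraries were above the 9 others.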

How the results depend on the processing

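Under 20 alternative settings, 855 values of single members, of those that could be had, kept their direction and call, 33 kept the direction without the call, 18 gained one, and 37 turned direction, all of them values that were not called. Members called in jazD against Col-0 numbered 5, and 3 with log2(TPM + 1) without a filter or with DESeq2. In cdk8-1 against Col-0 they numbered 5, 2 with log2(TPM + 1) without a filter, and 3 to 6 when 1 library was left out. In jazD cdk8-1 against cdk8-1 they numbered 1, 2 without a filter, and 1 to 2 when 1 library was left out. In the interaction they numbered 1, 2 without a filter and 2 with log2(TPM + 1), and 1 to 2 when 1 library was left out; with 1 library left out the other comparisons gave 4 to 5 (jazD against Col-0), 5 to 6 (jazD cdk8-1 against jazD) and 4 to 6 (jazD cdk8-1 against Col-0). The cause was not tested. The libraries' replicate numbers do not pair them: the 18 same-numbered pairs correlated at -0.06 to 0.05, none over 0.1, and 1 of 12 libraries was closer to its own number. With the number as a replicate block, 5, 6, 6, 5, 1 and 1 members were called in the comparisons of jazD with Col-0, of cdk8-1 with Col-0, of jazD cdk8-1 with jazD, with Col-0 and with cdk8-1, and in the interaction. With log2(TPM + 1), with or without a filter, and log2(TPM + 0.1), PR5 in cdk8-1 became 0.08 in all 3, SARD4 in jazD cdk8-1 against jazD 0.03, 0.03 and 0.04, the UGT76B1 interaction -0.24, -0.24 and -0.11, and the NIMIN1 interaction 0.08, 0.08 and 0.11. Leaving out 1 library turned these values, given as their range over the 12 libraries left out: ALD1, jazD against Col-0 -0.08 to 0.59, NIMIN1, jazD against Col-0 -0.50 to 0.18, PR5, cdk8-1 against Col-0 -0.20 to 0.21, SARD4, jazD cdk8-1 against jazD -0.31 to 0.10, PR1, jazD cdk8-1 against cdk8-1 -1.50 to 0.26, PR2, jazD cdk8-1 against cdk8-1 -0.53 to 0.30, PR5, jazD cdk8-1 against cdk8-1 -0.43 to 0.01, ALD1, jazD cdk8-1 against cdk8-1 -0.85 to 0.01, NIMIN1, jazD cdk8-1 against cdk8-1 -0.67 to 0.48, PR2, interaction -0.05 to 0.88, SARD4, interaction -0.07 to 0.34, UGT76B1, interaction -0.66 to 1.17, NIMIN1, interaction -0.54 to 0.61. The share of called genes that were higher changed by over 10 points on the TPM scales: with log2(TPM + 1) 3029 were higher and 4954 lower in jazD (4162 and 3991 with edgeR), 3947 and 1739 in cdk8-1 (2229 and 2624) and 6475 and 2075 from jazD to jazD cdk8-1 (3213 and 3612). Members below about 20 counts per library (FMO1, UGT76B1, NIMIN1 and ALD1 in genotypes with cdk8-1) are limited by depth. The same limit holds with intact CDK8 for FMO1 in Col-0 (4, 8 and 11 counts). It holds as well for NIMIN1 in Col-0 (9, 20 and 14) and jazD (9, 19 and 9), and in part for UGT76B1 in Col-0 (13, 17 and 29).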

Other observations

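Listed factors of jasmonate and salicylate crosstalk, chosen with earlier results of these data known, were all higher in jazD. There 5 of 5 rose (21.8% of all genes did), and 5 of 5 fell from jazD to jazD cdk8-1 (19.0%). Of these, NAC055 passed the filter on low counts through jazD, and its changes went the way the filter favours. It had 410 counts over the jazD libraries, 18 in Col-0, 5 in cdk8-1 and 24 in jazD cdk8-1. In cdk8-1 against Col-0, 4 fell (13.8%), and 4 rose in jazD cdk8-1 against cdk8-1 (12.7%). On the log2(TPM + 1) scale 1 fell in cdk8-1 and 4 fell from jazD to jazD cdk8-1. DESeq2 called 2 and 5 as lower in the same comparisons. ORA59, an ethylene and jasmonate response factor, averaged 1.12 ± 0.357 CPM in Col-0, 1.09 ± 0.259 in cdk8-1, 52.7 ± 4.50 in jazD and 14.1 ± 0.411 in jazD cdk8-1 (SD, n = 3). NAC055, which acts against salicylate accumulation, averaged 0.305 ± 0.136, 0.0831 ± 0.0290, 7.36 ± 0.919 and 0.396 ± 0.0181 CPM in the same order. MYC2, the main jasmonate factor, rose by 1.71 in jazD and by 1.74 in jazD cdk8-1 against cdk8-1 (edgeR adjusted p = 1.12e-14 and 3.68e-14).

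Of 6 lipid-linked genes of systemic signalling, 2 rose and 2 fell in jazD, where 21.8% and 20.9% of all genes did. AZI1, needed for azelaic acid priming, averaged 3.31 ± 1.26 CPM in Col-0, 4.44 ± 1.58 in cdk8-1, 45.4 ± 16.6 in jazD and 19.3 ± 9.08 in jazD cdk8-1 (SD, n = 3). Its rise was 3.78 in jazD and 2.13 in jazD cdk8-1 against cdk8-1 (edgeR adjusted p = 4.97e-09 and 5.98e-05). EARLI1, a related protein, rose by 2.60 in jazD (edgeR adjusted p = 4.22e-06), and its value from jazD to jazD cdk8-1 was -0.38 (adjusted p = 0.325). DIR1, a lipid-transfer protein of long-distance signalling, had -0.08 in jazD (adjusted p = 0.446) and rose by 0.71 in cdk8-1 (adjusted p = 4.27e-07).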
